A study of Mus musculus with 8 samples.

Results

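The MYC family and the MAX network were examined as 10 genes, taken by symbol from the deposited count table: the 3 MYC genes Myc, Mycn and Mycl, their shared partner Max, the MAX-binding repressor genes Mxd1, Mxd4, Mxi1 and Mnt, the large MAX partner gene Mga, and the MAX-like gene Mlx. All 10 are among the 53170 named genes of the table and all 10 passed the filter on low counts that left 14058 genes tested. The libraries are RNA of mouse hindstomach (glandular stomach) epithelium, taken on embryonic day 18.5 and grown as organoids for 5 days in growth medium. The 4 control libraries have the genotype Shh-Cre, a recombinase made in cells that express Shh, which includes foregut epithelium, and the 4 YAP5SA libraries have the genotype Shh-Cre;YAP5SA, so that the recombinase is common to both groups and the groups differ in YAP5SA, an active form of YAP. The comparison asks how active YAP changes gene expression in these organoids, though the groups also differed in Xist and Y-linked RNA, as given below.

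MYC proteins bind DNA only as pairs with MAX, at the short sequence called the E-box, and such pairs raise the transcription of genes for growth, ribosome assembly and nucleotide synthesis. MXD proteins, MXI1 and MNT compete for MAX and bring the SIN3 and histone deacetylase corepressor to the same sites, so the network is often described as a balance between activating and repressing partners of MAX. MGA pairs with MAX inside a Polycomb complex known as PRC1.6, and MLX takes the place of MAX for the glucose-responsive factors MondoA and ChREBP. In gut epithelium MYC is known as a Wnt-responsive driver of progenitor growth.

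Total counts over named genes ran from 13646225 to 19668033 per library. Each level below is a CPM value, a read count adjusted for library size after TMM normalization, and a fold change is YAP5SA over control. The labels do not say whether libraries of a group came from separate embryos or cultures, so each p-value rests on the spread among these 8 libraries alone, and that spread may be technical. Xist, the RNA of the inactive X chromosome, was at 675.6 to 1049 CPM in controls and at 0.41 to 2.76 CPM in YAP5SA, and the Y-linked genes Ddx3y, Uty, Kdm5d and Eif2s3y were at 39.3 to 110.7 CPM in YAP5SA and at most 0.325 CPM in controls, so genotype and sex cannot be told apart in any result below. All 10 members lie on autosomes. The epithelial markers Epcam, Krt8, Krt18 and Cdh1 summed to 4951 to 5311 CPM in controls and 4082 to 4145 CPM in YAP5SA, where Krt8 and Cdh1 fell, Epcam rose (485.7 to 640.4 CPM on average) and Krt18 did not pass. The 6 stomach markers (Sox2, Gata4, Cldn18, Tff1, Tff2 and Gkn2) summed to 1538 to 1625 CPM in controls and to 69.4 to 76 CPM in YAP5SA, where Cldn18 and Gkn2 averaged 2.05 and 0.106 CPM. Cldn18 made up most of the control sum, and of the 6 genes Sox2 alone rose, from 30.6 to 47.6 CPM on average, while the other 5 fell. Of the markers of other cells, 9 mesenchymal genes summed to at most 4.36 CPM (Col1a2 highest, Lum at 0), 6 enteric neural genes to at most 2.82 CPM (Tubb3 highest in controls, Sox10 at 0) and 4 erythroid genes to at most 0.842 CPM (Alas2 highest in YAP5SA). The 6 endothelial genes ran from 6.57 to 13.8 CPM in controls, mostly Tek, and from 1.29 to 2.83 in YAP5SA, where Tek fell to 0.317 CPM and Tie1 rose from 0.0429 to 1.65 CPM on average. The 6 immune genes ran from 19 to 38.2 CPM in controls, mostly Cd68, and from 9.25 to 10.5 in YAP5SA, where Cd68 fell to 7.88 CPM and Csf1r rose from 0.191 to 1.49 CPM on average. The 2 mesothelial genes, nearly all Upk3b, went from 3.87 to 4.6 CPM in controls to 15.6 to 20.9 in YAP5SA. The part of sex and of these markers in the results below was not tested. In bulk RNA, fewer cells of a type and less RNA per cell cannot be told apart.

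All 3 MYC genes were lower in YAP5SA, by very different amounts. Mycn nearly disappeared, Mycl fell by 35% and Myc, the most abundant of them, fell by 13.2%. Among the repressor genes, Mxd4 fell, Mxd1 and Mxi1 rose and Mnt did not pass the test, while Max, Mga and Mlx did not pass either. In all, 2 of the 10 members rose and 4 fell at an adjusted p under 0.05 (quasi-likelihood test of edgeR, with p-values adjusted by Benjamini-Hochberg over all tested genes), which is 60% of the members against 49.1% of all tested genes. By direction, 23.6% of tested genes were called higher and 25.5% lower. The median log2 fold change of the members was 0.06, against 0.00 over all tested genes. With 10 members, 1 gene more or less moves their share by 10 percentage points.

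**Figure D1:**
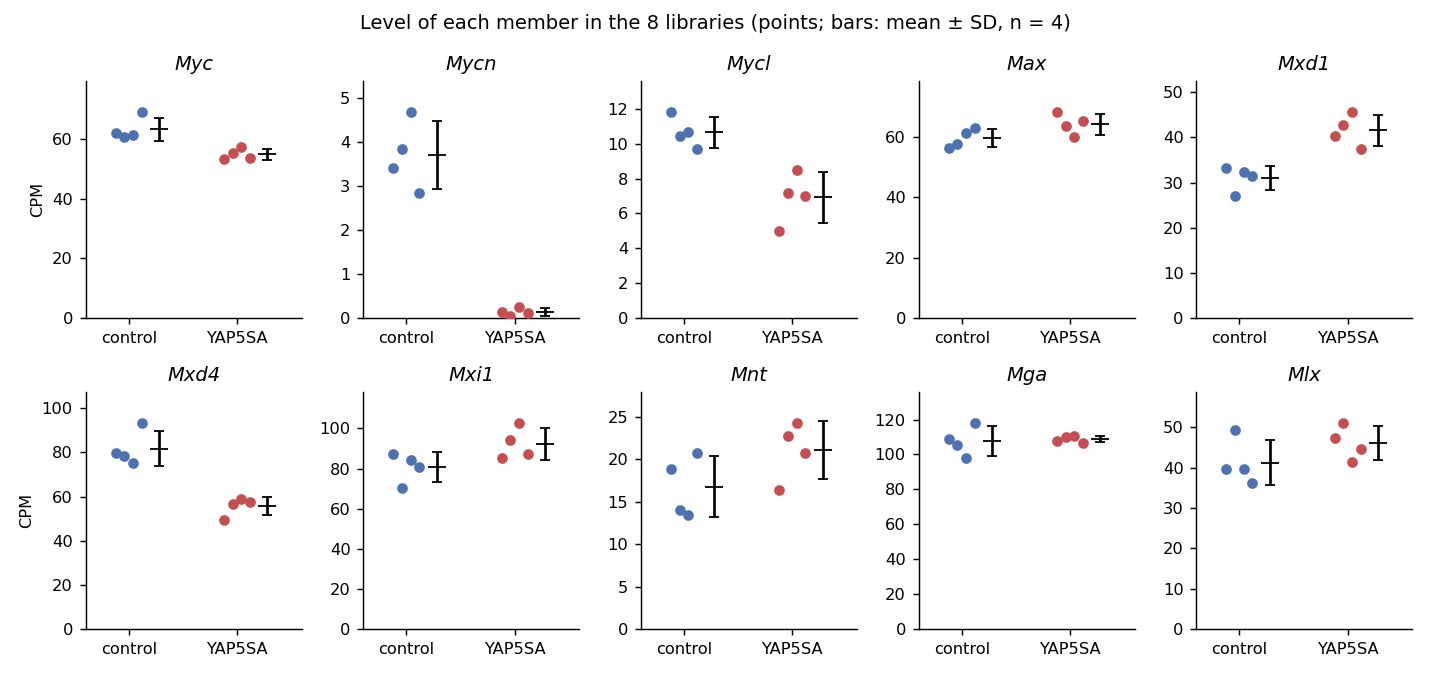
Level of each member in CPM (vertical axes, from 0) in the 4 control and 4 YAP5SA libraries; each point is a library and the bars are mean ± SD. Mycn drops from 2.85 to 4.68 CPM to at most 0.26 CPM, while Max, Mga and Mlx overlap between the groups.

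Mycn encodes N-MYC, the MYC protein best known from embryonic progenitors and neuroblastoma. It was counted 54, 71, 92 and 38 times in control libraries 1 to 4 and 2, 1, 4 and 2 times in YAP5SA libraries 1 to 4. That corresponds to 3.41, 3.84, 4.68 and 2.85 CPM in controls and 0.13, 0.06, 0.26 and 0.12 CPM in YAP5SA. Every YAP5SA library was far below every control library. The fitted log2 fold change was −4.69 ± 0.37 (SE, adjusted p = 8.4e-09, edgeR), a level 25.9-fold higher in controls, and only 1.46% of tested genes had a lower log2 fold change. The ratio of pooled levels, 255 counts against 9, was 27.8 with a 95% exact interval of 14.4 to 61.6, which covers counting error only. The gene was low in controls as well and had the lowest level of the 10 members there. Mycn passed the filter on low counts (minimum count 10) only through the controls.

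The sequence before the Mycn start is shown because Mycn had the largest change of the family. The 250 bases upstream of its RefSeq start, chr12:12941837-12942086 on the minus strand of GRCm38.p6, read as follows, with the sequence TTTGGCGC in capitals, a form of the site bound by the cell cycle factors of the E2F family.
Mycn upstream: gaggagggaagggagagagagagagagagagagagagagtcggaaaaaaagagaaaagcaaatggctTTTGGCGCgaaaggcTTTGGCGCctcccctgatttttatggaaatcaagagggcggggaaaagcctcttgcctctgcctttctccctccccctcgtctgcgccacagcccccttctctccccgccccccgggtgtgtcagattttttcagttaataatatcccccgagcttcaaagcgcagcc
It holds 2 copies, whose first bases lie 183 and 168 bases before the start. This motif was picked after the sequence had been read, so the shares given next cannot say whether its presence here is unusual. TTTGGCGC or its complement GCGCCAAA occurs in 0.514% of the 32851 windows of 300 bases (250 before to 50 after a start) in the RefSeq promoter table, and in 1.07% of the 10156 tested genes with a window. The lists described further on hold the E2F genes E2f1 and E2f6, and the other genes of that family were not looked at. E2f1 went from 18.8 ± 0.702 CPM in controls to 30 ± 2.28 CPM in YAP5SA (SD, n = 4 each; log2 fold change 0.68). E2f6 had 50.3 ± 2.15 and 51.7 ± 2.31 CPM and did not pass. Any part of E2F factors in the level of Mycn was not tested. A match in a sequence is a description and not a measured binding site.

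Mycl encodes L-MYC, a MYC protein of lower transforming activity. Its levels were 11.81, 10.45, 10.64 and 9.68 CPM in control libraries 1 to 4 and 4.98, 7.18, 8.50 and 7.01 CPM in YAP5SA libraries 1 to 4. The groups did not overlap, and YAP5SA 1 was the lowest library. The log2 fold change was −0.62 ± 0.14 (SE, adjusted p = 0.00155, edgeR), a decrease of 35%.

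Myc encodes c-MYC, the member that drives growth in most dividing tissues. It had 61.76, 60.70, 61.19 and 68.93 CPM in control libraries 1 to 4 and 53.08, 55.05, 57.09 and 53.65 CPM in YAP5SA libraries 1 to 4. The groups did not overlap, and the gap between the highest YAP5SA and the lowest control library was small. Control 4 stood above the other controls. The log2 fold change was −0.20 ± 0.06 (SE, adjusted p = 0.0107, edgeR), and 28.9% of all tested genes had a lower one, so the decrease of Myc was of a size common in these data. At an adjusted p under 0.01 Myc would not pass. Bmyc, a paralogue of Myc that encodes a related shorter protein, fell from 5.35 ± 0.802 to 2.46 ± 0.738 CPM (SD, n = 4 each; log2 fold change −1.11). To the extent that reads of Myc and Bmyc were shared or discarded in counting, both values are uncertain.

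Max encodes the common partner of the MYC, MXD, MNT and MGA proteins. It had 56.20, 57.67, 61.29 and 62.71 CPM in control libraries 1 to 4 and 68.10, 63.56, 59.67 and 65.02 CPM in YAP5SA libraries 1 to 4. The groups overlapped and the log2 fold change was 0.11 ± 0.06 (SE, adjusted p = 0.166, edgeR).

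Mxd1 and Mxd4 encode MAX partners of the MXD family, which are known to be made as cells leave the cell cycle and differentiate. Mxd1 had 33.34, 27.13, 32.27 and 31.50 CPM in control libraries 1 to 4 and 40.33, 42.80, 45.64 and 37.51 CPM in YAP5SA libraries 1 to 4. All YAP5SA libraries were above all controls, with a log2 fold change of 0.42 ± 0.08 (SE, adjusted p = 0.000342, edgeR). Mxd4 went the other way. It had 79.50, 78.57, 75.29 and 93.46 CPM in control libraries 1 to 4 and 49.52, 56.60, 58.77 and 57.54 CPM in YAP5SA libraries 1 to 4. Again the groups did not overlap, and the log2 fold change was −0.55 ± 0.07 (SE, adjusted p = 6.68e-06, edgeR). The related genes Mxd1 and Mxd4 thus changed in opposite directions, up by 33.9% and down by 31.8%.

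Mxi1 encodes another repressor of the MXD family, and it rose slightly. Its levels were 87.33, 70.13, 84.14 and 80.63 CPM in control libraries 1 to 4 and 85.12, 94.37, 102.9 and 87.22 CPM in YAP5SA libraries 1 to 4. The groups overlapped, since control 1 was above YAP5SA 1 and YAP5SA 4. The log2 fold change was 0.20 ± 0.07 (SE, adjusted p = 0.0345, edgeR), and each of 3 libraries decided this call, for which edgeR gave an adjusted p of 0.136 without control 2, 0.0899 without YAP5SA 2 and 0.145 without YAP5SA 3.

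Mnt encodes a MAX partner that is made in dividing and resting cells alike and opposes MYC in both. It had 18.88, 14.03, 13.49 and 20.70 CPM in control libraries 1 to 4 and 16.44, 22.81, 24.33 and 20.73 CPM in YAP5SA libraries 1 to 4. Controls 1 and 4 lay within the range of YAP5SA, and Mnt had the widest spread of the members in controls, with a coefficient of variation of 21.3%. The log2 fold change of 0.34 ± 0.15 (SE) did not pass (adjusted p = 0.0653, edgeR). It passed in 6 of 16 other settings, among them limma-voom (adjusted p = 0.0407, limma) and the fit without control 4 (adjusted p = 0.0124, edgeR).

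Mga, the longest member, had 97.84 to 118.2 CPM in controls and 106.8 to 110.7 CPM in YAP5SA. Its log2 fold change was 0.02 ± 0.06 (SE, adjusted p = 0.825, edgeR), the smallest of the 10. Mlx had 36.23 to 49.28 CPM in controls and 41.32 to 51.13 CPM in YAP5SA, with a log2 fold change of 0.16 ± 0.09 (SE, adjusted p = 0.16, edgeR). It passed only without control 2, its highest control library (adjusted p = 0.0176, edgeR). Mlx overlaps Psmc3ip on the other strand in the GENCODE M21 annotation, and handling of strand is not given in the sources used here, so reads of these genes cannot be told apart in their overlap. Psmc3ip had 947 counts in the 8 libraries against 2802 in controls and 3058 in YAP5SA for Mlx.

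**Figure D2:**
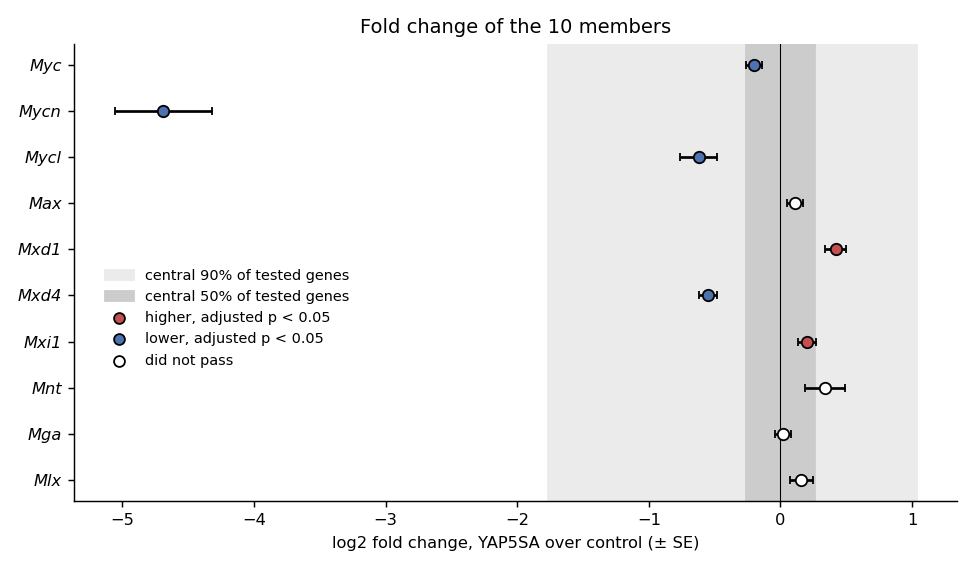
Log2 fold change of each member, YAP5SA over control (horizontal axis), with its SE; filled points passed an adjusted p under 0.05 in edgeR. Grey bands hold the central 50% (−0.26 to 0.26) and the central 90% (−1.77 to 1.04) of all tested genes, and of the members only Mycn lies outside the wider band.

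Between the groups, 5 of the 10 members did not overlap (Mycn, Mycl, Myc and Mxd4 lower, Mxd1 higher), against 45.7% of all tested genes (21.8% higher and 23.9% lower). The change of Mycn stood apart from the other members in size. For comparison within the family, Mycl and Mxd4 fell and Mxd1 rose by between 31.8% and 35% of the control level, and Myc and Mxi1 changed by less than 15%.

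Levels of different genes were compared per length, as CPM per kilobase of merged exons (RPKM) with lengths from GENCODE M21. In controls Myc was highest at 23.2 ± 1.43 RPKM (SD, n = 4), followed by Mlx (20.6 ± 2.81 RPKM), Max (16.5 ± 0.844 RPKM), Mxi1 (11.8 ± 1.1 RPKM) and Mxd4 (9.63 ± 0.948 RPKM). Below these came Mga (7.02 ± 0.55 RPKM), Mxd1 (4.39 ± 0.386 RPKM), Mnt (3.63 ± 0.771 RPKM), Mycl (2.64 ± 0.218 RPKM) and Mycn (1.12 ± 0.235 RPKM). Of the 9 neighbouring pairs in this order, 4 overlapped between libraries, namely Myc and Mlx, Mxi1 and Mxd4, Mxd1 and Mnt, and Mnt and Mycl. In YAP5SA the order was Mlx (23.1 ± 2.07 RPKM), Myc (20.1 ± 0.658 RPKM), Max (17.8 ± 0.973 RPKM), Mxi1 (13.5 ± 1.18 RPKM), Mga (7.1 ± 0.121 RPKM), Mxd4 (6.55 ± 0.49 RPKM), Mxd1 (5.88 ± 0.49 RPKM), Mnt (4.56 ± 0.74 RPKM), Mycl (1.71 ± 0.359 RPKM) and Mycn (0.0425 ± 0.0257 RPKM). There the pairs Mlx and Myc, and Mxd4 and Mxd1, overlapped. The order depends on the length used. With the longest transcript of each gene, Max came first in both groups, at 30.6 ± 1.56 RPKM in controls and 33 ± 1.8 RPKM in YAP5SA.

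Within the summed RPKM of the 3 MYC genes, Myc made up 86 ± 1.76% in controls and 92 ± 1.36% in YAP5SA (SD, n = 4 each). Mycl made up 9.79 ± 1.07% and 7.78 ± 1.32%. Mycn went from 4.18 ± 0.98% to 0.192 ± 0.108%. The summed level of the MYC genes was 26.1 to 28.6 RPKM in controls and 20.8 to 23.2 RPKM in YAP5SA, without overlap. The summed level of Mxd1, Mxd4, Mxi1 and Mnt was 26.4 to 31.8 RPKM in controls and 27.6 to 33.7 RPKM in YAP5SA, with overlap, while Mxd4 fell and Mxd1 and Mxi1 rose. Within that sum Mxd4 went from 32.7 ± 2.49% to 21.5 ± 1.11%, Mxd1 from 14.9 ± 0.822% to 19.3 ± 1.07% and Mxi1 from 40.1 ± 2.56% to 44.4 ± 0.765%. The order of these shares depends on the length used. With the longest transcript, Mxd4 went from 40.2 ± 2.81% to 27.4 ± 1.35% and Mxi1 from 36.4 ± 2.45% to 41.8 ± 0.718%. Mxd4 then had the larger mean share in controls. The sum of the MYC genes was then 30.4 to 33.3 RPKM in controls and 24.2 to 26.9 RPKM in YAP5SA. The sum of Mxd1, Mxd4, Mxi1 and Mnt was then 39.8 to 47.5 RPKM in controls and 39.8 to 48.2 RPKM in YAP5SA. How these sums compare with each other therefore depends on the length used. These sums and shares are descriptions and were not tested.

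**Figure D3:**
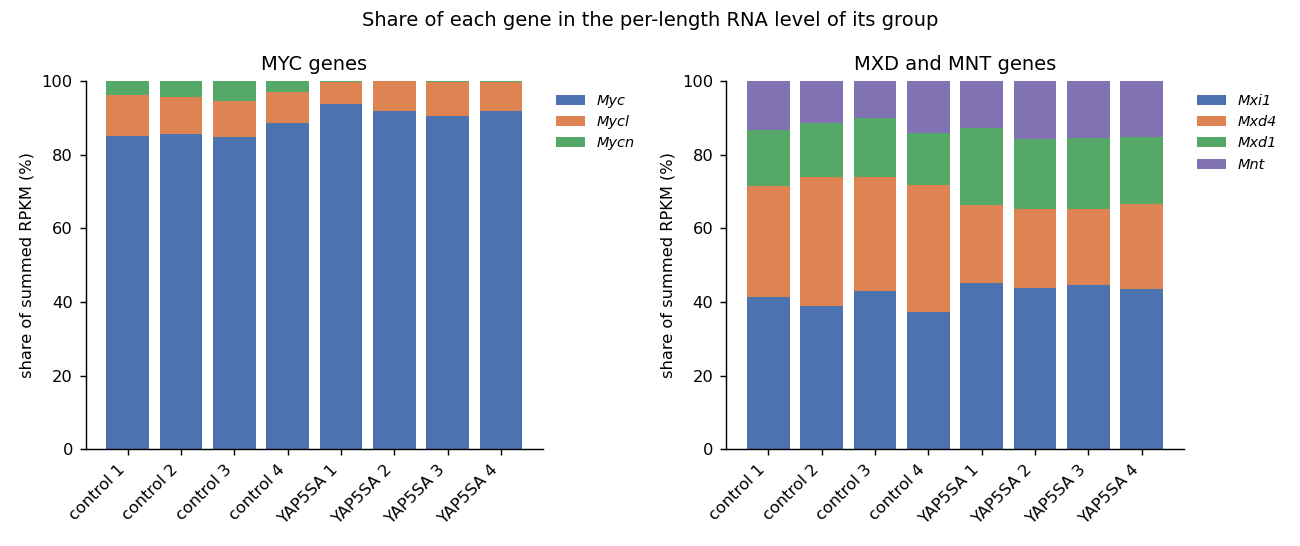
Share of each gene in the summed RPKM (vertical axis, percent) of the MYC genes and of the MXD and MNT genes, with 1 bar per library. Mycn takes 3.02% to 5.35% of the MYC sum in controls and at most 0.337% in YAP5SA, and the share of Mxd4 shrinks from 32.7% to 21.5% on average.

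E-boxes were looked for because the proteins of the network bind them. The RefSeq table of GRCm38.p6 held promoter windows for 9 of the 10 members (all but Myc). The E-box CACGTG, which reads the same on both strands, occurred in 4 of these 9 genes, against 11.6% of the 10156 tested genes with a window and 7.15% of all windows. The 30 bases around each, 5′ to 3′ on the strand of the gene, are given with the E-box in capitals.
Max (chr12:76962234-76962263, minus strand): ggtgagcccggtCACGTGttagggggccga
Mxd4 (chr5:34187912-34187941, minus strand): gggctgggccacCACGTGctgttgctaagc
Mnt (chr11:74830789-74830818, plus strand): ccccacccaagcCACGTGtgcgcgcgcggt
Mlx (chr11:101087238-101087267, plus strand): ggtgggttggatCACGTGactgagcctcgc
The first base of the E-box lay 3 bases before the start in Max, 40 in Mlx, 123 in Mnt and 219 in Mxd4. These 4 genes did not move together, since Mxd4 fell and Max, Mnt and Mlx did not pass the test. The windows of the 5 other members with an entry held no E-box. The core letters of the site bound by the TEAD partners of YAP, GGAATG or on the other strand CATTCC, were in none of the 11 windows of the 9 members and in 14.7% of all windows. These letters being absent from a window says nothing about binding elsewhere.

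Partners and regulators of the MYC proteins were taken as lists. Among 5 further genes of the network, 3 were tested and only Bmyc was called. Mlxip, which encodes MondoA, had 53.2 ± 3.15 and 54.8 ± 4.93 CPM, Mxd3 had 1.98 ± 0.564 and 2 ± 0.398 CPM, Mlxipl, which encodes ChREBP, was too low to test at 0.347 and 0.799 CPM, and Mycs had 0 counts. Of 17 MYC coactivators and binding partners (among them Trrap, Kat5, Wdr5 and Zbtb17, which encodes MIZ1) none was called by edgeR, where 49.1% of all tested genes were. In that list 1 gene had an unadjusted p under 0.05 (7673 of all 14058 tested genes did), DESeq2 called 0 and limma-voom called 1. The closest were Bptf (111.7 ± 11.8 and 123.1 ± 5.51 CPM, adjusted p = 0.0908, edgeR) and Zbtb17 (15.9 ± 0.333 and 18.9 ± 3.69 CPM, adjusted p = 0.0921, edgeR), followed by Actl6a (51.5 ± 4.36 and 56.7 ± 0.686 CPM) and Ccnt1 (88.4 ± 5.71 and 95.8 ± 2.03 CPM). The count of 0 depended on libraries and settings. Without control 4, 5 of the 17 were called higher, and without a filter on low counts 4 were. Bptf and Ccnt1 also passed with scaling by library size alone, Actl6a without control 3 and Zbtb17 without YAP5SA 1. Control 4 had the fewest counts (13646225). Without it 7317 of 14322 tested genes were called, against 6899 of 14058 with it.

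Of 18 genes for turnover of the MYC protein, 6 rose and 12 did not pass (edgeR), with a median log2 fold change of 0.15. Called were 33.3% of this list, all higher, against 49.1% of all tested genes called in either direction and 23.6% called higher. Those with the smallest p were Ppp2r5a, which encodes a subunit of the phosphatase that acts on MYC (84.2 ± 2.31 to 110.2 ± 2.13 CPM), Cip2a, an inhibitor of that phosphatase (90.2 ± 9.12 to 125.1 ± 4.78 CPM), the kinase gene Aurka (46.5 ± 2.3 to 60.8 ± 4.13 CPM) and the ubiquitin ligase gene Skp2 (25.5 ± 3.63 to 34 ± 1.21 CPM). Plk1 and Usp37 also rose. Factors that protect the MYC protein and factors that help to remove it were both among the genes that rose, and Aurka, Plk1 and Skp2 are also cell cycle genes. Fbxw7, the ligase subunit that marks phosphorylated MYC, had 29.3 ± 3.08 and 33.4 ± 1.69 CPM and did not pass (adjusted p = 0.0624, edgeR). Without control 4, 10 of the 18 were called higher.

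The corepressor used by MXD and MNT proteins had 14 tested genes of 15, of which 5 rose and 1 fell, with a median log2 fold change of 0.10. That is 42.9% called, against 49.1% of all tested genes. Sap30, a subunit of the SIN3 complex, rose from 81.9 ± 5.03 to 122.8 ± 7.56 CPM (log2 fold change 0.58), the subunit gene Arid4a from 39 ± 3.16 to 49.8 ± 1.95 CPM and Rbbp4, a histone-binding subunit, from 280.0 ± 6.75 to 316.6 ± 6.99 CPM. Sin3a and Sap18 rose by 0.17 each on the log2 scale. The deacetylase gene Hdac1 went against the list and fell from 157.2 ± 9.99 to 133.1 ± 6.88 CPM (log2 fold change −0.24). The number called higher was 3 without control 1 or YAP5SA 2 and at an adjusted p under 0.01.

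Mga itself did not pass the test. Of the 12 genes for its partners in the PRC1.6 complex, 5 fell and the other 7 did not pass (edgeR). That is 41.7% called, all lower, against 49.1% of all tested genes called in either direction and 25.5% called lower. Pcgf6, the Polycomb ring finger protein that defines this complex, fell from 40.3 ± 1.4 to 23.4 ± 1.13 CPM (log2 fold change −0.78, adjusted p = 4.82e-08, edgeR). Rnf2, the ubiquitin ligase of Polycomb complexes, fell from 81.1 ± 4.01 to 59.8 ± 1.26 CPM (log2 fold change −0.44), L3mbtl2 from 31.9 ± 1.7 to 26.5 ± 0.373 CPM (−0.27), and Hdac1 (given above, shared with the corepressor list) and Rybp (log2 fold change −0.20) fell as well. The other 7, among them E2f6 and Tfdp1, had log2 fold changes between −0.01 and 0.06, so the median of the list was 0.01. Of 13 germline genes that this complex is known to silence, only 2 passed the filter on low counts. Tdrkh rose from 1.75 ± 0.435 to 3 ± 0.903 CPM (adjusted p = 0.0234, edgeR), but not with control 3 (adjusted p = 0.082, edgeR), YAP5SA 1 (0.0971) or YAP5SA 2 (0.0594) left out, and Zcwpw1 had 1.98 ± 0.234 and 2.65 ± 0.51 CPM. The other 11 had at most 0.661 CPM on average in either group, with Mael and Slc25a31 at 0 counts. Among these, Stag3 had 45 counts over the controls (0.661 CPM) and 8 over YAP5SA (0.121 CPM), without overlap between the groups.

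Target genes of MYC were taken in 4 lists. Of 25 genes for the nucleolus and ribosome assembly, 8 fell and 17 did not pass (edgeR), with a median log2 fold change of −0.15. An unadjusted p under 0.05 was found for 14 of the 25, and for 7673 of all 14058 tested genes. The changes were small. Utp20, a factor of small ribosomal subunit processing, fell from 97.6 ± 10.6 to 70.2 ± 4.93 CPM (log2 fold change −0.47), Bop1, a factor of large subunit assembly, from 57.7 ± 3.1 to 47.9 ± 3.64 CPM (−0.27), Nolc1 from 101.7 ± 5.94 to 88.9 ± 3.84 CPM (−0.20) and the RNA methyltransferase gene Nop2 from 62.3 ± 3.8 to 53.1 ± 3.89 CPM (−0.23). The abundant nucleolar genes Ncl and Npm1 had log2 fold changes of −0.08 and 0.15 and did not pass. Called were 32% of this list, all lower, against 49.1% of all tested genes called in either direction and 25.5% called lower. The number called lower was sensitive to the libraries and the tool. It was 13 without control 4 and 5 without control 2, YAP5SA 2, YAP5SA 3 or YAP5SA 4, with DESeq2, with scaling by library size alone, or with the replicate number as a block. In 4 other settings (library size alone, limma-voom, no filter on low counts, and without control 2) Npm1 was called higher.

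Of 21 targets for metabolism, translation and folding, 7 fell and 4 rose, or 52.4% called against 49.1% of all tested genes. Tfrc, the transferrin receptor, fell from 830.6 ± 76.7 to 375 ± 37.9 CPM (log2 fold change −1.15), and the nucleotide synthesis genes Cad and Gart fell by 0.38 and 0.32 on the log2 scale. Paics, another purine synthesis gene, rose from 491.1 ± 29.2 to 610.0 ± 21.0 CPM, Eif4ebp1, an inhibitor of cap-dependent translation, rose from 32.6 ± 6.55 to 51.6 ± 1.58 CPM and Ldha rose by 0.44 on the log2 scale. Odc1, the polyamine enzyme often used as a readout of MYC, fell from 247.4 ± 12.2 to 224.2 ± 8.37 CPM (log2 fold change −0.14, adjusted p = 0.0278, edgeR). The called genes went both ways, and 12 were called lower without control 4.

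Of 7 targets in the cell cycle, 3 rose (Id2, E2f1 and Cks2) and 2 fell (71.4% called, against 49.1% of all tested genes). Those that fell were the cyclin gene Ccnd2 (3637 ± 581.8 to 2402 ± 174.6 CPM) and the phosphatase gene Cdc25a (46.9 ± 3.95 to 34.1 ± 3.24 CPM), and Cdk4 did not pass (log2 fold change 0.04). Of 6 genes known to be repressed by MYC, often through MIZ1, 3 fell and 1 rose (66.7% called, against the same background). The cell cycle inhibitor gene Cdkn2b fell from 59.8 ± 4.4 to 30.7 ± 1.38 CPM (log2 fold change −0.96), Cdkn1a fell by 0.92 and Ndrg2 by 0.88 on the log2 scale. Cdkn1b, which encodes the inhibitor p27, rose from 47.4 ± 1.72 to 80 ± 2.66 CPM (log2 fold change 0.75).

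Targets of MLX with MondoA or ChREBP also went both ways, with 4 of 10 tested genes higher and 2 lower (60% called, against 49.1% of all tested genes). Txnip, the standard readout of MondoA, had 175.7 ± 19.9 and 169.1 ± 12.2 CPM and did not pass (log2 fold change −0.06). Arrdc4, a relative of Txnip, fell by 0.21 on the log2 scale (adjusted p = 0.0263, edgeR), but not with control 1 (adjusted p = 0.0566, edgeR), YAP5SA 1 (0.0854) or YAP5SA 4 (0.083) left out. The lipid genes Acaca (118.4 ± 10.6 to 158.5 ± 7.05 CPM) and Me1 (165.9 ± 3.05 to 225.7 ± 5.82 CPM) rose, as did Klf10 (34.9 ± 6.38 to 56.8 ± 2.66 CPM) and Elovl6. Pklr, the pyruvate kinase gene of liver and a ChREBP target, fell from 5.49 ± 0.384 to 0.104 ± 0.0905 CPM, with 370 counts over the controls and 7 over YAP5SA.

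**Figure D4:**
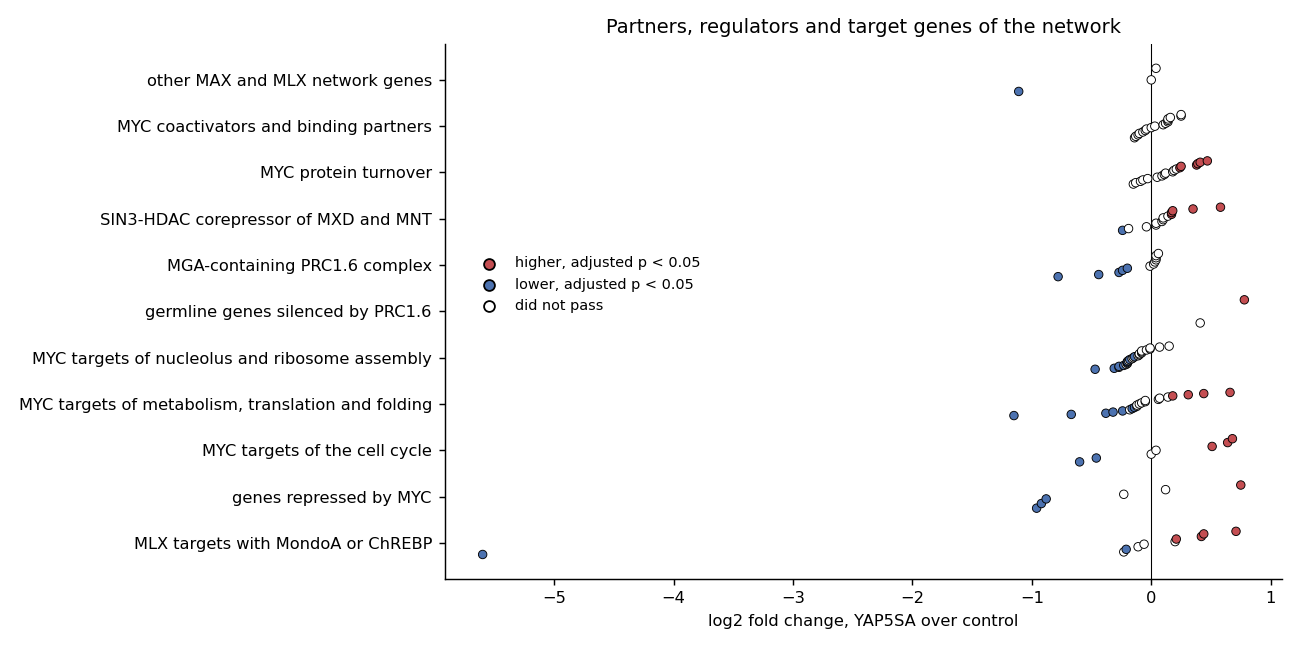
Log2 fold change, YAP5SA over control (horizontal axis), of each tested gene of the 11 lists (rows; points are spread vertically for legibility), filled where the adjusted p was under 0.05 in edgeR. No coactivator is called, the called PRC1.6 and nucleolar genes are all lower, and Pklr is the far point of the MLX target list.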

How the data were processed

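Per the submitters' processing notes, the build was mm9 and the tools were HTSeq 0.6.1, HISAT2 2.0.1 and cutadapt. The sources used here do not give the annotation release, the counting options or the strand handling. The authors deposited whole-number read counts per gene, not normalized. The 2639 rows without a gene name (0.19% to 0.221% of counts) were left out, and rows sharing a symbol were summed, which left 53170 genes. filterByExpr (minimum count 10, minimum total 15) left 14058 genes, tested in edgeR 4.0.16 (R 4.3.3) with TMM and robust quasi-likelihood fits, genotype as the only term and Benjamini-Hochberg adjustment over all tested genes. Standard errors were taken as the size of the log2 change over the root of the F statistic. DESeq2 1.42.0 and limma 3.58.1 (voom) were alternatives, beside other scalings, filters, a replicate block and leaving out each library. The test was checked on simulated counts.

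The members, lists and motifs were chosen with earlier results of these data known. Genes named are all members, the 4 genes of each list with the smallest adjusted p, up to 3 called genes against a list's direction, for each other cell type its most abundant marker, and Xist and Y-linked genes. Others (Trrap, Kat5, Wdr5, Mlxipl, Mycs, Plk1, Usp37, Fbxw7, Sin3a, Sap18, Rybp, E2f6, Tfdp1, Mael, Slc25a31, Ncl, Npm1, Cad, Gart, Odc1, Cks2, Cdk4, Txnip, Elovl6, Stag3 and the other markers named) were added after their values were seen. Exon lengths come from GENCODE M21 and promoter sequences from RefSeq, both on GRCm38, not on the authors' build. Wdr5, Hdac1 and Hdac2 stand in more than 1 list. Libraries of a group differed by more than sampling noise.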

Additional observations from a re-analysis of the deposited data

Results flagged for a closer look

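In 7 of 102 sets of 4 libraries (a gene in a group), the highest or lowest library stood apart from the other 3 by more than the 95% critical value of Dixon's test, and chance flags about 1 in 20. Myc in control 4 was at 68.9 CPM, above 60.7 to 61.8 CPM in the other controls. Paics in the same library was at 447.6 CPM, below 501.2 to 509.2 CPM. Control 2 was apart for Zcwpw1 (2.33 CPM against 1.83 to 1.88), Cdc25a (41 CPM against 48.5 to 49.1) and Arrdc4 (65 CPM against 72.6 to 73.9). YAP5SA 1 was high for Utp20, at 77.6 CPM against 67.5 to 68.2, and YAP5SA 2 was low for Ccnt1, at 92.8 CPM against 96.6 to 97.1.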

How the results depend on the processing

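Mycn, Mycl, Myc, Mxd4 and Mxd1 kept direction and call in all 16 other fits, and Mycn ranged from −5.14 to −4.43. With 2 members higher and 4 lower in the reported fit, the number higher was 1 at an adjusted p under 0.01 and 1 to 3 when a library was left out, and the number lower was 3 at 0.01 and 4 with any library left out. Of 148 distinct list genes, 132 were tested. Of these, 24 were higher and 28 lower, with 20 to 35 and 24 to 39 when a library was left out. Over all tested genes, 23.6% were higher and 25.5% lower. Deviations of same-numbered libraries were little correlated (−0.0549, −0.0793, 0.0936 and 0.0377). The labels do not say whether the numbers pair libraries, and correlations this small cannot exclude it. With the replicate number as a block, 2 members were higher and 4 lower. With the longest transcript as length, 5 members changed rank in controls and 6 in YAP5SA. The uncalled log2 fold changes turned for Mga (−0.03 without control 3, and −0.03 to 0.07 over the libraries left out), Mlxip (−0.02 without YAP5SA 3, and −0.02 to 0.08) and Mxd3 (−0.14 to 0.16 when a library was left out, and −0.00 with at least 1 CPM in 4 libraries). Small list counts moved by over 1.5 times. The germline list had 1 or 0 genes higher and 0 or 1 lower, the MLX targets 1 to 3 lower, and the coactivators 0 to 5 higher. Scaling by library size alone called 3635 genes higher and 3282 lower, against 3315 and 3584 with TMM. The causes were not tested. Depth limits Mycn in YAP5SA, where each library had 1 to 4 counts.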
